A study of Mus musculus with 18 samples.

Results

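Perilipins and lipases were followed in cultured mouse ovarian follicles as 6 genes: the droplet coat genes Plin2, Plin3, Plin4 and Plin5 and the triglyceride and hormone-sensitive lipase genes Pnpla2 and Lipe. Every probe set whose array annotation gave 1 of these symbols alone was taken, which gave 9 of the 45037 probe sets that are not array controls, for 6 of 18193 genes with a symbol of their own. The genes were chosen with their 24 h against 12 h differences in vehicle and AMH 200 ng/mL cultures, and their dose effects, already known. Those values are therefore given as a description, without a test. The difference between 24 h and 12 h in AMH 50 ng/mL cultures is built from the vehicle difference and the dose effects, so it is given as a description too.

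Follicles of preantral to small antral size came from C57BL/6Ntac females of 6 to 8 weeks. For each replicate and time, follicles of 7 mice were pooled and then cultured for 24 h or 12 h in vehicle or in recombinant AMH at 50 or 200 ng/mL. AMH, the anti-Müllerian hormone, is made by granulosa cells and restrains follicle growth. All groups, vehicle included, also received FSH at 80 IU/L and LH at 10 IU/L, so no group without gonadotropins was part of the comparison. The 6 groups had 3 arrays each, 18 in all, from 6 pools, and RNA was amplified from 5 ng. The submitters describe arrays as comparable within 1 experiment, that is, the 3 doses of 1 pool, whereas the 24 h and 12 h cultures were separate pools of mice. Time and pool therefore cannot be told apart for any single pair of arrays, and the spread of the 3 pools at each time is the only measure of that difference. In whole follicles, fewer cells of a type and less RNA per cell cannot be told apart either.

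Lipid droplets store triglyceride and cholesteryl ester under a coat of perilipins, which decide how far lipases reach the core. Plin2 and Plin3 are the widely expressed coat proteins, whereas Plin4 and Plin5 are best known from adipose tissue, muscle and liver. Pnpla2 encodes adipose triglyceride lipase, which removes the first fatty acid of a triglyceride, and Lipe encodes hormone-sensitive lipase, which cleaves diglyceride and, in steroid-making cells, cholesteryl ester. In the ovary, droplets in theca, luteal and granulosa cells supply cholesterol for steroid synthesis, and gonadotropins act there through cAMP and protein kinase A, which phosphorylates perilipins and hormone-sensitive lipase.

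The upstream sequences of the 3 perilipin genes that kept 1 direction at every dose are shown because Plin4 and Plin5 lie side by side on chromosome 17 and had parallel signals, whereas Plin2 moved the other way. Each line gives the 250 bases before the most upstream start of the gene in RefSeq, build GRCm38.p6, written 5′ to 3′ on the gene's own strand, which is the minus strand for all 3. The windows are chr17:56117549-56117798 for Plin5, chr17:56109783-56110032 for Plin4 and chr4:86670060-86670309 for Plin2. Capitals mark the nuclear receptor hexamer AGGTCA on either strand.
Plin5: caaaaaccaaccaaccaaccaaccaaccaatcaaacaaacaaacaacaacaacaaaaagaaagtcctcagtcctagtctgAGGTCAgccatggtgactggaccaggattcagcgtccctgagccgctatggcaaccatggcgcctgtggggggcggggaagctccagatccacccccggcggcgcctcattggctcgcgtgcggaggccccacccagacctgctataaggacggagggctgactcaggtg
Plin4: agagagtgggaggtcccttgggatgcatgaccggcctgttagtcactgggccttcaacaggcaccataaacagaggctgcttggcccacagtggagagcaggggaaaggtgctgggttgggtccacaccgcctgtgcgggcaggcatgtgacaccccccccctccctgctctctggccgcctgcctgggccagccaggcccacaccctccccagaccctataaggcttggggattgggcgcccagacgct
Plin2: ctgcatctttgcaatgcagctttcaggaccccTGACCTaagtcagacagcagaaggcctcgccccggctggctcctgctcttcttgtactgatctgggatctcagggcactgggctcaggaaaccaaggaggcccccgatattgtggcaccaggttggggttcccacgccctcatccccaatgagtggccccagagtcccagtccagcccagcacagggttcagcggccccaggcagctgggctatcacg
All 6 genes had a window in the table, and Plin5 and Lipe had 2 each, of which the most upstream was taken. The motifs searched on both strands were AGGTCA, its direct repeat with 1 base between (the DR1 form bound by PPAR and RXR, which also contains AGGTCA), TCAAGGTCA (the NR5A form, which also contains AGGTCA), TGACGTCA (the cAMP response element), the shorter TGACG within it and the E-box CACGTG. Plin5 held 1 AGGTCA that began 170 bases before the start, on the gene's strand, and Plin2 held 1 on the opposite strand that began 218 bases before it. Lipe held 1 E-box, and no searched letters were found in the windows of Plin3, Plin4 and Pnpla2. Of 27025 windows of this length, 13.8% held AGGTCA, 0.037% the direct repeat, 0.366% the NR5A form, 1.6% the full and 17.8% the shorter cAMP response element, and 6.04% the E-box. The 2 matches to AGGTCA are therefore letters that many promoters share.

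The third AMH 50 ng/mL array of 12 h stood apart from the rest and is given separately. Its correlation with the other arrays, across all 45037 probe sets, was 0.604 to 0.624, against 0.904 to 0.992 (median 0.972) among the other 17. A second array, replicate 3 of AMH 200 ng/mL at 12 h, was nearer to the rest and was kept. Its median correlation with the other 16, across tested probe sets, was 0.85, against 0.906 to 0.962 for the others. The median signal of this array was also the lowest of the 17, at 18.1, where the highest was 36.6. Oocyte genes and granulosa genes were present in the cultures: the summed signals of the 9 oocyte markers were 1358 to 6698 in vehicle 24 h cultures and 436 to 9250 in vehicle 12 h cultures. Of 7 granulosa markers 6 were on the array, with sums of 5374 to 5976 at 24 h and 2339 to 4246 at 12 h.

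Plin5, whose protein couples droplets to mitochondria in muscle and liver, was the member with the largest difference between the times. On the probe set 1441915_s_at, the signals of vehicle 24 h cultures were 572, 271 and 241, against 42.5, 21.8 and 7.13 in vehicle 12 h cultures. In AMH 50 ng/mL cultures they were 445, 476 and 440 at 24 h, against 21.2 and 14.7 at 12 h. In AMH 200 ng/mL cultures they were 404, 141 and 452 at 24 h, against 11.8, 35.2 and 2.19 at 12 h. No 24 h array overlapped a 12 h array at any dose, and the 12 h signals, at 2.19 to 42.5, lay around or below the median signals of the arrays, which were 18.1 to 36.6. Pool 2 gave the lowest 24 h value with AMH 200 ng/mL, and pool 1 the highest with vehicle.

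The log2(signal + 16) difference of Plin5, 24 h minus 12 h, was 3.24 (SE 0.41) in vehicle, 3.80 (SE 0.21) in AMH 50 ng/mL and 3.41 (SE 0.52) in AMH 200 ng/mL cultures. The second probe set of the gene, 1424937_at, showed the same order with smaller differences. Its signals were 186, 97.2 and 89.1 in vehicle 24 h cultures, against 23.1, 23.6 and 5.36 in vehicle 12 h cultures. Cultures with AMH 50 ng/mL had 129, 201 and 201 at 24 h, against 15.9 and 21.5 at 12 h. Cultures with AMH 200 ng/mL had 143, 68.1 and 182 at 24 h, against 11.4, 14.0 and 12.6 at 12 h. These gave log2 differences of 2.06 (SE 0.34), 2.46 (SE 0.27) and 2.27 (SE 0.35) in order of dose. Leaving out any 1 vehicle array kept the vehicle difference between 2.87 and 3.57 on the first probe set and between 1.76 and 2.24 on the second. The size depends on the value added before the logarithm: with 1 added it was 4.06 and 2.93 in vehicle cultures, and with 50 added 2.42 and 1.34.

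**Figure D1:**
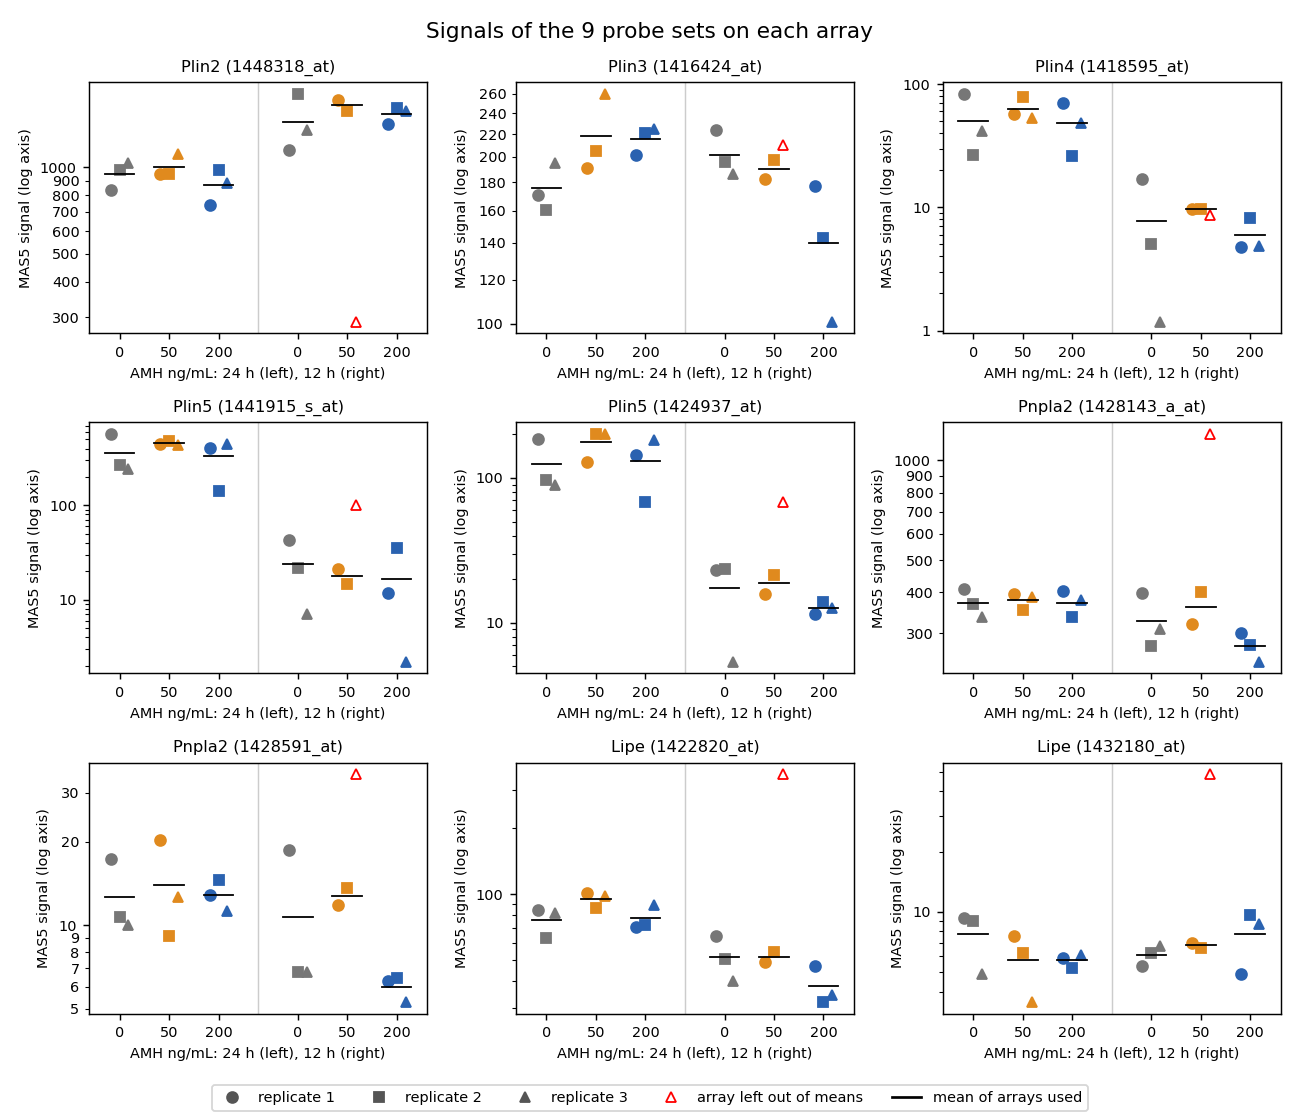
Signal of each of the 9 probe sets (log axis) on each array, with 24 h cultures left of 12 h cultures and AMH dose rising to the right within each time. Points are arrays, bars are means of the arrays used, and the hollow red triangle is the array given apart. Plin4 and both Plin5 probe sets are higher on every 24 h array than on every 12 h array used, and Plin2 is lower on every 24 h array than on every 12 h array used.

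Plin4, the neighbour of Plin5 and a coat protein of nascent droplets in adipocytes, had low signals and followed the same pattern. Its probe set read 83.5, 26.8 and 41.5 in vehicle 24 h cultures, against 16.9, 5.08 and 1.18 in vehicle 12 h cultures. The AMH 50 ng/mL cultures gave 57.4, 78.0 and 52.7 at 24 h, against 9.68 and 9.72 at 12 h, and with AMH 200 ng/mL 70.7, 26.1 and 48.2 at 24 h, against 4.73, 8.18 and 4.89 at 12 h. The times did not overlap at any dose. The log2 difference was 1.45 in vehicle, 1.60 in AMH 50 ng/mL and 1.49 in AMH 200 ng/mL cultures, with standard errors of 0.36, 0.26 and 0.32 from the fit of all 45037 probe sets. All 12 h signals lay below the median signal of the arrays, and the mean level of this probe set, at percentile 47.7, was below the filter at percentile 50, so it was not among those tested. With 1 in place of 16 added the vehicle difference was 2.91, and with 50 added 0.77.

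Plin2, the coat protein that rises with lipid load in most cells, moved the other way. Its signals were 836, 980 and 1034 in vehicle 24 h cultures, against 1155, 1808 and 1356 in vehicle 12 h cultures. Under AMH 50 ng/mL they were 946, 949 and 1113 at 24 h, against 1726 and 1569 at 12 h, and with AMH 200 ng/mL 738, 983 and 880 at 24 h, against 1422, 1618 and 1575 at 12 h. Every 24 h array was below every 12 h array used. The log2 difference was -0.57 (SE 0.18) in vehicle, -0.71 (SE 0.17) in AMH 50 ng/mL and -0.82 (SE 0.17) in AMH 200 ng/mL cultures. Leaving out 1 vehicle array gave -0.72 to -0.40. In AMH 50 ng/mL cultures, leaving out 1 array gave -0.79 to -0.64.

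Plin3, a coat protein recruited from the cytosol to young droplets, did not hold 1 direction. Its signals were 171, 160 and 195 in vehicle 24 h cultures, against 224, 196 and 186 in vehicle 12 h cultures, and the times overlapped. At 50 ng/mL AMH they were 191, 205 and 260 at 24 h, against 183 and 197 at 12 h, again with overlap. At 200 ng/mL AMH they were 202, 221 and 224 at 24 h, against 177, 143 and 101 at 12 h, without overlap. The log2 differences were -0.19 (SE 0.18), 0.18 (SE 0.20) and 0.60 (SE 0.26) in order of dose. Without replicate 3 of AMH 200 ng/mL at 12 h, the array with the lower correlation, the last of these was 0.40. Ordered by group mean, Plin3 stood at 218 ± 36.7 (SD, n = 3) in AMH 50 ng/mL at 24 h, 216 ± 12.3 in AMH 200 ng/mL at 24 h, 202 ± 19.5 in vehicle at 12 h, 190 ± 10.1 (n = 2) in AMH 50 ng/mL at 12 h, 176 ± 17.8 in vehicle at 24 h and 140 ± 38.1 in AMH 200 ng/mL at 12 h. Each neighbouring pair in this order lay closer than the larger of its SDs.

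The lipase genes had smaller differences. Pnpla2 on 1428143_a_at read 408, 369 and 337 in vehicle 24 h cultures, against 398, 275 and 310 in vehicle 12 h cultures, with overlap and a log2 difference of 0.19 (SE 0.18). Its AMH 50 ng/mL signals were 395, 352 and 388 at 24 h, against 321 and 400 at 12 h. Its AMH 200 ng/mL signals were 402, 336 and 378 at 24 h, against 301, 277 and 246 at 12 h, without overlap and with a difference of 0.42 (SE 0.19). The second Pnpla2 probe set, 1428591_at, had signals of 5.28 to 20.3 on the 17 arrays, near or below the array medians, and was not tested. Its log2 differences were 0.12, 0.05 and 0.39 in order of dose, the last without overlap.

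Lipe on 1422820_at read 84.2, 63.3 and 81.8 in vehicle 24 h cultures, against 64.0, 50.7 and 40.0 in vehicle 12 h cultures, with an overlap of 1 array. With AMH 50 ng/mL it read 101, 86.1 and 97.7 at 24 h, against 48.8 and 54.3 at 12 h, and with AMH 200 ng/mL 70.7, 72.0 and 89.5 at 24 h, against 47.1, 32.1 and 34.6 at 12 h. At both AMH doses the times did not overlap. The log2 differences were 0.46 (SE 0.22) in vehicle, 0.71 (SE 0.23) in AMH 50 ng/mL and 0.80 (SE 0.27) in AMH 200 ng/mL cultures. The other Lipe probe set, 1432180_at, read 3.55 to 9.67 on the 17 arrays and was not tested. Its log2 differences were 0.10, -0.07 and -0.12 in order of dose, all with overlap, so it did not show the rise of 1422820_at.

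**Figure D2:**
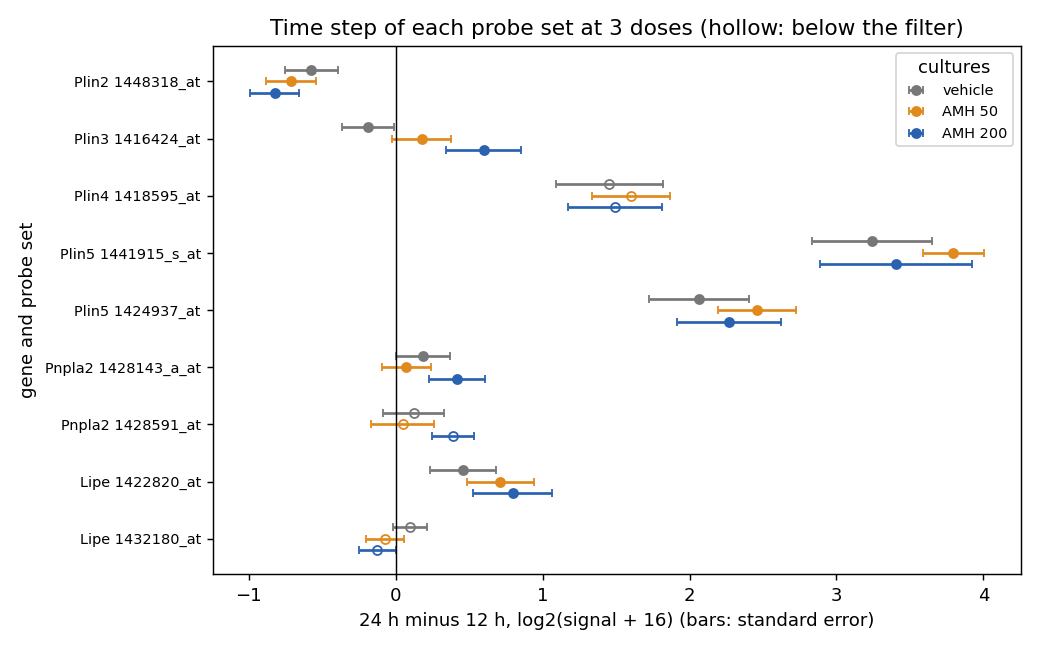
Difference between 24 h and 12 h on the log2(signal + 16) scale for each probe set, with vehicle, AMH 50 ng/mL and AMH 200 ng/mL cultures from top to bottom within a row. Points are fitted differences, bars are standard errors, and hollow points are probe sets below the filter, with standard errors from the fit of all probe sets. Plin5 lies at 3.24 to 3.80 and 2.06 to 2.46, Plin4 at 1.45 to 1.60 and Plin2 at -0.57 to -0.82.

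Counted over the 9 probe sets, the times did not overlap at all 3 doses in 3 that were higher at 24 h (Plin4 and both of Plin5) and in 1 that was lower (Plin2). Over all 45037 probe sets the same was true of 4.31% for higher and 2.38% for lower. By dose, 3 of the 9 were higher and 1 lower without overlap in vehicle cultures, where 10.9% of all probe sets were higher and 8% lower. In AMH 50 ng/mL cultures 4 were higher and 1 lower, against 16.7% and 14.4% of all. In AMH 200 ng/mL cultures 7 were higher and 1 lower, against 14.8% and 10.2% of all. The members were chosen on the vehicle and AMH 200 ng/mL values, and the doses share pools, so nothing is read from these counts.

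Across the whole table, limma called 292 of 22518 probe sets (1.3%) in the vehicle comparison of 24 h with 12 h at an adjusted p under 0.05, of which 198 were higher and 94 lower. With the replicate number as a block, a pairing of the times that the labels do not state, 642 were called. The count fell to 1, 0 and 0 without vehicle 24 h replicate 1, 2 or 3 and to 35 without vehicle 12 h replicate 2, and stood at 555 without vehicle 12 h replicate 3. With AMH 200 ng/mL 881 were called (3.91%), 67.5% of them higher. Median centring of the arrays moved the share of higher calls to 54.3% and the median of all tested probe sets to -0.0884, against 0.0966 as deposited. After that centring the AMH 200 ng/mL differences of Plin2, Pnpla2 and Lipe were -1.01, 0.23 and 0.61. Without AMH 200 ng/mL 24 h replicate 1, 2 or 3 the count was 0, 7 and 0, and without 12 h replicate 1, 2 or 3 it was 181, 1431 and 2993.

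In AMH 50 ng/mL cultures, with 3 arrays of 24 h and 2 of 12 h, 1709 probe sets were called (7.59%), 4.7% of all tested as higher and 2.89% as lower. The count became 867, 954 and 1076 without 24 h replicate 1, 24 h replicate 3 and 12 h replicate 2, and in the last of these the lone 12 h array was assumed to vary like the 24 h arrays. At 12 h alone the Plin5 probe sets lay at percentiles 44.3 and 42.6 of mean log2 level, under the filter, and they passed it through their 24 h level.

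Differences between doses were taken within each pool. In the fit of 17 arrays with pool as a block, limma called 0% of the 22518 probe sets at either dose and time, and 0% for the AMH 200 ng/mL effect at 24 h minus that at 12 h. At an unadjusted p under 0.05 there were 607 probe sets for AMH 50 ng/mL and 374 for AMH 200 ng/mL at 24 h, 1285 and 2565 at 12 h, and 1618 for the difference of effects. With array weights, 1011 were called for AMH 50 ng/mL at 24 h and 8 for AMH 200 ng/mL at 24 h. Without the 12 h pool of replicate 2, 226 were called for AMH 200 ng/mL and 4 for AMH 50 ng/mL at 12 h. The median standard error of a log2 difference was 0.204 in 3 of these comparisons and 0.239 for AMH 50 ng/mL at 12 h.

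Of the 9 probe sets, that of Plin3 alone had AMH 200 ng/mL differences of 1 sign in every pool of 24 h and of the other sign in every pool of 12 h. It was higher than vehicle at 24 h by 0.22, 0.43 and 0.19 (log2, fitted difference 0.28, SE 0.16). The 12 h differences were -0.31, -0.42 and -0.79 (fitted -0.51, SE 0.16). The effect at 24 h minus that at 12 h was 0.78 (SE 0.23), and 0.64 without the 12 h pool that held the array with the lower correlation. Every pool one way at 24 h and the other way at 12 h occurred in 3.52% of all probe sets. With AMH 50 ng/mL at 24 h Plin3 was higher by 0.14, 0.32 and 0.39 in the pools (fitted 0.28, SE 0.16).

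Lipe on 1422820_at was higher with AMH 50 ng/mL in each pool of 24 h, by 0.22, 0.37 and 0.22 (fitted 0.27, SE 0.19). With AMH 200 ng/mL at 12 h it was lower in each pool, by -0.34, -0.47 and -0.14 (fitted -0.32, SE 0.19). The AMH 200 ng/mL differences of Lipe at 24 h were -0.21, 0.15 and 0.11, which do not hold 1 direction. Plin5 on 1441915_s_at also split by pool: with AMH 200 ng/mL at 24 h it differed by -0.49, -0.87 and 0.86, and with AMH 50 ng/mL by -0.35, 0.78 and 0.83. At 12 h its AMH 200 ng/mL differences were -1.07, 0.44 and -0.35. Plin2 differed by -0.18, 0.00 and -0.23 with AMH 200 ng/mL at 24 h (fitted -0.13, SE 0.14) and by 0.30, -0.16 and 0.21 at 12 h (fitted 0.12, SE 0.14). The fitted Plin4 differences with AMH 200 ng/mL were -0.02 at 24 h and -0.06 at 12 h, with a standard error of 0.29 in the fit of all probe sets.

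By count, 1 of the 9 probe sets was higher and 0 lower in every pool with AMH 200 ng/mL at 24 h, where 24.7% of all probe sets held 1 direction. For AMH 50 ng/mL at 24 h 2 were higher and 1 lower, against 25.3% of all. For AMH 200 ng/mL at 12 h 0 were higher and 3 lower (Plin3, Lipe and the weaker Pnpla2 probe set), against 23.4% of all. For AMH 50 ng/mL at 12 h, where 2 pools were left, 1 was higher and 2 lower, against 53.9% of all.

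**Figure D3:**
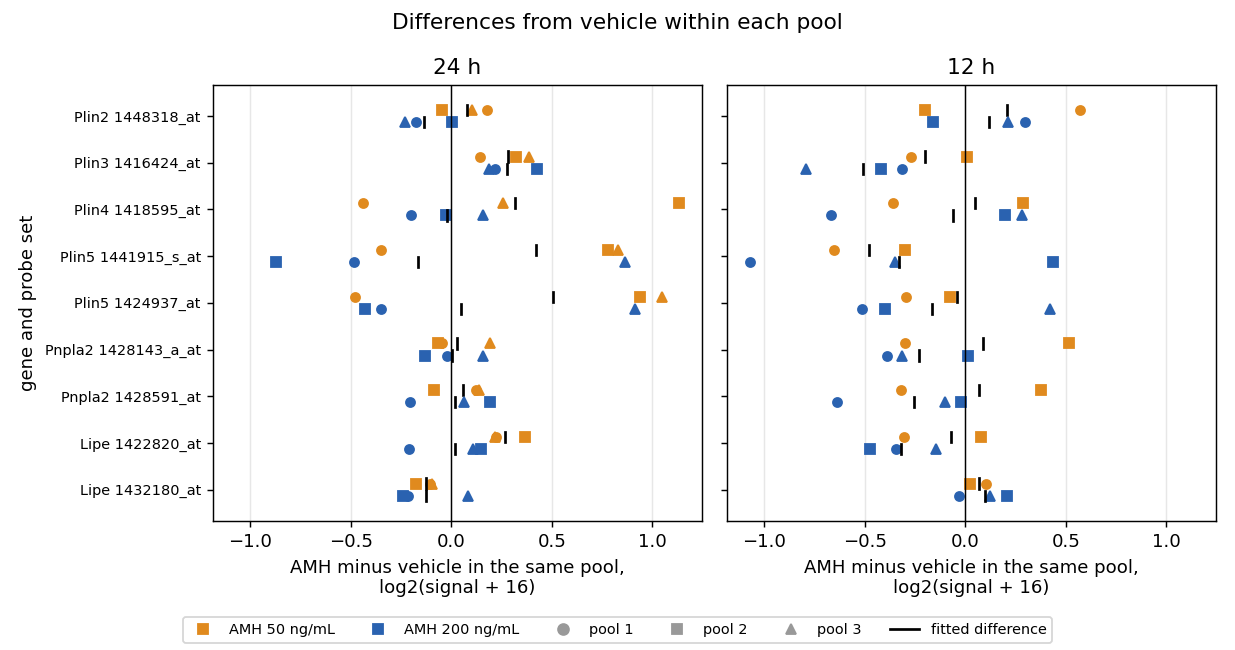
Difference from vehicle within each pool on the log2(signal + 16) scale, at 24 h (left) and 12 h (right), for AMH 50 ng/mL (orange) and AMH 200 ng/mL (blue). Points are pools, black ticks are fitted differences, and pool 3 of AMH 50 ng/mL at 12 h is left out. Plin3 with AMH 200 ng/mL lies above 0 in all 3 pools at 24 h and below 0 in all 3 at 12 h, and Plin5 lies on both sides of 0.

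The array given apart, AMH 50 ng/mL at 12 h in replicate 3, differed from the others in these genes as well. Its Plin2 signal was 289, below the lowest of the other 17 arrays at 738, and its log2 difference from vehicle of the same pool was -2.17. Pnpla2 read 1204 on it, above the highest other value of 408, and Lipe read 354, above the highest other value of 101. Plin5 read 101 and 68.5 on its probe sets, above every other 12 h array. The first value lay below every 24 h array, whose lowest was 141, and the second beside the lowest 24 h array, which read 68.1. Plin3 read 210 and Plin4 8.65, within the range of the other arrays. With this array kept, the AMH 50 ng/mL difference of Plin2 was 0.10 in place of -0.71. Lipe on 1422820_at then had -0.10 in place of 0.71, and Pnpla2 on 1428143_a_at -0.50 in place of 0.07. Plin5 kept its direction, at 3.20 and 2.03 on its probe sets.

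The members' signals were also set against each other. Across the 17 arrays, the correlation of log2(signal + 16) was 0.979 between the Plin5 probe sets and 0.966 between Plin4 and Plin5. After each time's mean was taken out, it was 0.798 and 0.803. Plin2 and Plin5 had -0.883 across all arrays and -0.255 within times. Plin3 and Lipe had 0.671 and 0.703, which makes them the pair least altered by taking out the times among those described here. These values share arrays, pools and scaling and carry no test.

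By the same measure, the genes with patterns most like each member were picked from all tested probe sets with 1 symbol. For Plin5 they were Hp (0.985, and 0.826 within times), Atl3 (0.978 and 0.747) and Phyh (0.975 and 0.692). For Plin4 they were Slc25a18 (0.969 and 0.820), Rnf180 (0.965 and 0.822) and Fshr (0.962 and 0.791), the receptor for FSH on granulosa cells. For Plin2 they were Tbrg1 (0.952), Sprr1a (0.942) and Rfc5 (0.941), for Plin3 Tmco3 (0.913), Plekhm2 (0.878) and 1700007K13Rik (0.877), for Pnpla2 Vps26c (0.908), Pxylp1 (0.884) and Fkbp5 (0.874), and for Lipe Cmbl (0.924), Pigg (0.917) and Gstm7 (0.916). Within times, in the same order, these were 0.75, 0.68 and 0.74 for Plin2 and 0.90, 0.85 and 0.85 for Plin3. They were 0.85, 0.81 and 0.84 for Pnpla2 and 0.67, 0.72 and 0.71 for Lipe.

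Cell type markers moved with time as well. Of the granulosa markers, Fshr, Foxl2, Inha and Inhbb were higher on every vehicle 24 h array than on every vehicle 12 h array, with Fshr 2.43 and Foxl2 1.05 higher on the log2 scale. The other granulosa markers overlapped: Amh read 13.1 to 21.7 at 24 h and 12.4 to 221 at 12 h, and Amhr2 1332 to 1522 and 543 to 1391. The surface epithelium marker Upk3b was 2.53 higher at 24 h, without overlap. Adipocyte markers summed to 144 to 307 in vehicle 24 h cultures and 359 to 710 in vehicle 12 h cultures. Most of that sum was Fabp4, which is also made by endothelial cells and macrophages, at 119 to 294 in 24 h and 308 to 668 in 12 h cultures. The defining adipocyte genes Adipoq, Cidec, Lep and Cidea were below the median signal of the array on 17 of 17 arrays and Retn on 16. Endothelial sums were 381 to 888 at 24 h and 670 to 2658 at 12 h, theca and interstitial sums 6518 to 6653 and 2736 to 6688, macrophage sums 873 to 1937 and 1053 to 1559, and surface epithelium sums 1472 to 3178 and 431 to 1483. In AMH 50 ng/mL cultures, granulosa sums were 4737 to 6374 at 24 h and 3256 to 3867 at 12 h, theca and interstitial sums 5697 to 9139 and 3654 to 3848, and adipocyte sums 48.6 to 117 and 290 to 690, each without overlap. Endothelial sums there were 414 to 891 at 24 h and 615 to 655 at 12 h, macrophage sums 475 to 1109.9 and 856 to 1504, surface epithelium sums 1168 to 1349 and 486 to 1649, and oocyte sums 837 to 4052 and 2150 to 6278, all overlapping. In AMH 200 ng/mL cultures, granulosa sums were 5886 to 5998 at 24 h and 1199 to 4395 at 12 h, without overlap. Theca and interstitial sums there were 5496 to 6952 and 3123 to 5185, adipocyte sums 84.4 to 129 and 364 to 680, also without overlap. Macrophage sums there were 368 to 1038 at 24 h and 1138 to 2074 at 12 h, without overlap. Surface epithelium, endothelial and oocyte sums there overlapped. The macrophage markers did not share 1 direction in vehicle cultures. Without overlap, Csf1r differed by -2.27 between 24 h and 12 h, but Lyz2 by 1.42 and Tyrobp by 0.91, and the others overlapped. Adgre1 was below the array median on 17 of 17 arrays and C1qa on 16. The highest signals of the theca and interstitial list were those of Hsd3b1 (1649 to 4479 on the 17 arrays) and Cyp11a1 (483 to 3409). Cyp17a1 overlapped between the times in vehicle cultures, at 29.8 to 421 at 24 h and 21.7 to 737 at 12 h, as did Ptch1. Cyp17a1 was below the array median on 6 of 17 arrays. The part of granulosa and other cell content in the perilipin differences was not tested.

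Around the members, 91 other genes of lipid storage and use were listed in 9 groups, of which 81 were on the array and 66 were tested. In vehicle cultures limma called 0 of the 66 between 24 h and 12 h. Before adjustment 17 of them had a p under 0.05, as had 4180 of 22518 tested probe sets. Without overlap 12 were higher and 7 lower, where 10.9% and 8% of all 45037 probe sets were, those below the filter included. Among the tested probe sets, 5634 of 22518 were higher or lower without overlap. The median log2 difference of the 66 was 0.101, against -0.0034 over all 11238 genes. Without vehicle 12 h replicate 3, 1 of the 66 was called. In AMH 50 ng/mL cultures 7 rose and 5 fell between 12 h and 24 h. Of all tested probe sets 4.7% were called as higher and 2.89% as lower there. In AMH 200 ng/mL cultures 3 rose and 1 fell, where 3.91% were called. Here and below, rose and fell mean 24 h against 12 h within cultures of 1 dose, not a difference from vehicle. The doses share pools, and the genes named below were picked by their vehicle p, so their AMH values are not independent support. The AMH 50 ng/mL values rest on 2 arrays of 12 h, and with the third kept limma called 0 probe sets.

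Among lipolysis partners, G0s2, the inhibitor of adipose triglyceride lipase, had signals of 364 ± 78.5 in vehicle 24 h and 208 ± 79.8 in vehicle 12 h cultures (SD, n = 3 each), a log2 difference of 0.81 (SE 0.29, adjusted p = 0.193). It rose in AMH 50 ng/mL cultures (1.36, SE 0.24, adjusted p = 0.00858) and was the only one of 8 tested genes of that list to pass at that dose. In AMH 200 ng/mL cultures G0s2 had 0.60 (SE 0.35, adjusted p = 0.315), with overlap of the times, and did not pass. Angptl4, an inhibitor of lipoprotein lipase, differed by -0.35 in vehicle and -0.37 in AMH 50 ng/mL cultures and did not pass. Of 9 tested droplet proteins 0 passed at any dose. Hsd17b11, a droplet dehydrogenase, had 0.42 (SE 0.15, adjusted p = 0.195) and Hilpda, a hypoxia-induced lipase inhibitor, 0.34 (SE 0.24, adjusted p = 0.487) in vehicle cultures.

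Enzymes at the entry to triglyceride synthesis differed in sign. Gpam, the mitochondrial glycerol-3-phosphate acyltransferase, had signals of 1933 ± 149 in vehicle 24 h and 1064 ± 499 in vehicle 12 h cultures (log2 difference 0.98, SE 0.34, adjusted p = 0.179). It rose by 1.10 (adjusted p = 0.0284) in AMH 50 ng/mL and 1.17 (adjusted p = 0.0244) in AMH 200 ng/mL cultures. Gpat3, an acyltransferase of the endoplasmic reticulum, had -0.66 in vehicle (adjusted p = 0.15). It fell between 12 h and 24 h in AMH 50 ng/mL cultures (-1.05, adjusted p = 0.0336). In AMH 200 ng/mL cultures Gpat3 had -0.73 (adjusted p = 0.234), with overlap, and did not pass. Of the 11 tested genes of this list, 1 rose and 1 fell in AMH 50 ng/mL cultures, and 1 rose and 0 fell in AMH 200 ng/mL cultures.

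Cholesteryl ester handling had the highest list median of the 24 h minus 12 h difference in AMH 50 ng/mL cultures. It was 1.06 over 4 tested genes, against -0.018 over all genes, and 3 of the 4 rose. Scarb1, the receptor that takes up cholesteryl ester from HDL, had 1732 ± 203 in vehicle 24 h and 1125 ± 253 in vehicle 12 h cultures (0.63, SE 0.18, adjusted p = 0.119). It rose by 1.13 between 12 h and 24 h in AMH 50 ng/mL cultures (adjusted p = 0.018). Star, which carries cholesterol into mitochondria for steroid synthesis, had 0.37 in vehicle (adjusted p = 0.477). It rose by 0.99 between 12 h and 24 h in AMH 50 ng/mL cultures (adjusted p = 0.0338). In AMH 200 ng/mL cultures 0 of the 4 passed between the times, with Scarb1 at 1.08 and Star at -0.12. In the fit of doses against vehicle, limma called 0 of 22518 probe sets at either dose and time, these genes included. The 2 AMH doses were not tested against each other.

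Of 9 tested genes of fatty acid uptake and activation, 0 rose and 1 fell between 12 h and 24 h in the cultures of each AMH dose. Fabp4, a fatty acid binding protein, had 187 ± 93.6 in vehicle 24 h and 453 ± 189 in vehicle 12 h cultures (-1.23, SE 0.36, adjusted p = 0.131). It fell between the times in AMH 50 ng/mL (-2.47, adjusted p = 0.0139) and AMH 200 ng/mL cultures (-2.33, adjusted p = 0.016). Fabp3, the heart-type protein, had 0.96 in vehicle (adjusted p = 0.172) and did not pass at either AMH dose. In beta-oxidation, Acadm, the medium-chain dehydrogenase, had 483 ± 45.1 at 24 h and 305 ± 79.9 at 12 h in vehicle (0.66, SE 0.21, adjusted p = 0.151). It rose by 0.77 between the times in AMH 50 ng/mL cultures (adjusted p = 0.0158). In AMH 200 ng/mL cultures Acadm had 1.10 (SE 0.31, adjusted p = 0.0867) and did not pass. Acadl, the long-chain enzyme, had -0.43 in vehicle and 0.11 in AMH 50 ng/mL cultures and did not pass.

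Of the lipid regulators, Ppara, a fatty acid receptor that drives oxidation genes and Plin5 in liver, had 94.5 ± 18.3 at 24 h and 59.0 ± 10.4 at 12 h in vehicle cultures (0.55, SE 0.22, adjusted p = 0.237). Its difference was 0.39 (SE 0.23, adjusted p = 0.364) in AMH 50 ng/mL and -0.02 (SE 0.64, adjusted p = 0.989) in AMH 200 ng/mL cultures. Ppard had -0.54 in vehicle (SE 0.28, adjusted p = 0.344), 0.07 in AMH 50 ng/mL (adjusted p = 0.871) and -0.52 in AMH 200 ng/mL cultures (adjusted p = 0.207). PPAR target genes had a median of -0.288 in vehicle cultures over 7 tested genes, with Cpt1a, the carnitine acyltransferase, at 0.38 (adjusted p = 0.243). Of the 7, 0 rose and 3 fell between the times in AMH 50 ng/mL cultures, and 0 rose and 1 fell in AMH 200 ng/mL cultures. Among protein kinase A subunits, the regulatory subunit Prkar1b had the smallest adjusted p of all 66 in vehicle cultures (-0.83, SE 0.18, adjusted p = 0.0685). It fell between the times in AMH 50 ng/mL cultures (-0.69, adjusted p = 0.0475). In AMH 200 ng/mL cultures Prkar1b had -0.93 (SE 0.22, adjusted p = 0.0563) and did not pass. Prkar2a had -0.50 in vehicle (adjusted p = 0.172) and -0.43 in AMH 50 ng/mL cultures (adjusted p = 0.185).

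**Figure D4:**
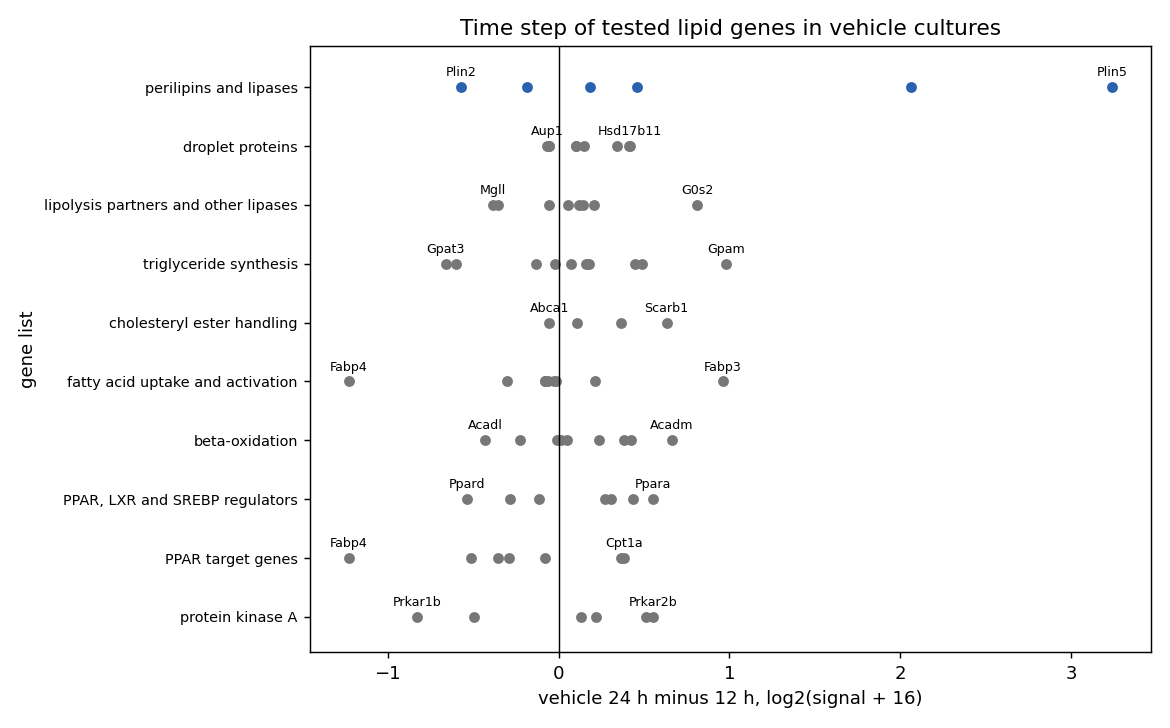
Difference between 24 h and 12 h in vehicle cultures on the log2(signal + 16) scale, 1 point per tested probe set of the members (blue, top) and 1 per tested gene of 9 lipid lists (grey). The lowest and highest gene of each row is named. Plin5 at 3.24 and 2.06 lies right of all listed genes, of which Gpam has the highest value at 0.98 and Fabp4 the lowest at -1.23. The members were chosen with these differences known, and Plin5 passed the filter through its 24 h level, so nothing is read from its position.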

How the data were processed

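RNA of 18 follicle cultures was hybridised to Affymetrix mouse expression arrays, 1 per culture. The authors deposited MAS5 signal intensity per probe set (version not given, per the submitters' processing notes). The values are linear, and each array's 2% trimmed mean is 150. They were used as deposited, as log2(signal + 16). Low signals are compressed by the added 16, and signals from amplified RNA carry amplification error. Titles and source names gave the times; the description of the 12 h AMH samples says 24 h.

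Of 45101 probe sets 64 controls were left out, and the 22518 above the 50th percentile of mean log2 were tested with limma 3.58.1 in R 4.3.3 (lmFit, eBayes with trend, two-sided, Benjamini-Hochberg, 0.05). The array annotation gave 1 symbol to 34945 probe sets, several to 932 and none to 9160. Time was fitted in the 6 arrays of a dose (5 for AMH 50 ng/mL), and doses in 17 arrays with pool as a block. Vehicle arrays of 24 h and 12 h with the same replicate number deviated together weakly (r 0.318, 0.261 and 0.207). The labels state no pairing, and these values do not establish 1. The values were lower for the arrays of AMH 200 ng/mL (0.105, 0.123 and 0.00585) and AMH 50 ng/mL (-0.0443 and -0.0376), which came from the same pools. The number of arrays limits the precision.

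Members and lists were chosen with earlier results of these data known. The AMH 50 ng/mL time difference had been meant as a test of the members. It is the vehicle difference plus dose effects that chose them, so no member p-value is given. A listed gene with several tested probe sets is represented by the brightest, and of each list the 2 genes with the smallest p in vehicle cultures are named, since none passed. Listed genes and markers without a probe set of their own were not analysed here. Alternatives changed the value added (1 or 50), scaling, filter, variance trend, array weights, blocks and arrays. Promoter windows are from RefSeq (GRCm38.p6). The plots used matplotlib 3.10.9 (python 3.11.15).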

Additional observations from a re-analysis of the deposited data

Results flagged for a closer look

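Plin3 was singled out because its AMH 200 ng/mL difference from vehicle was above 0 in all 3 pools of 24 h and below 0 in all 3 pools of 12 h. The effect at 24 h minus that at 12 h was 0.78 on the log2 scale. limma called 0 of 22518 probe sets in that contrast (smallest adjusted p = 0.628, with 1618 at an unadjusted p under 0.05), and 3.52% of all probe sets had pools split in this way.

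The weak Lipe probe set 1432180_at was below vehicle in all 3 pools of 24 h and above it in both pools of 12 h with AMH 50 ng/mL, a difference of effects of -0.19. This difference was not tested, and its signals of 3.55 to 9.67 lie below the median of every array.

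On the array given apart, AMH 50 ng/mL at 12 h in replicate 3, 4 probe sets of the lipase genes were above every vehicle array. Pnpla2 read 1204 on 1428143_a_at, against at most 408 on vehicle arrays, and 35.1 on 1428591_at, against at most 18.6. Lipe read 354 on 1422820_at, against at most 84.2, and 48.8 on 1432180_at, against at most 9.37.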

How the results depend on the processing

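Directions of the Plin2, Plin4 and Plin5 differences held under every alternative run for the vehicle and AMH 200 ng/mL steps. For AMH 50 ng/mL, the difference between 24 h and 12 h of Plin2 was 0.10 in place of -0.71 with the array given apart kept. That of Lipe on 1422820_at was -0.10 in place of 0.71, and that of Pnpla2 on 1428143_a_at -0.50 in place of 0.07. The cause was not tested. Counts of called probe sets depended on the settings, and causes were not tested unless fewer arrays or other probe sets entered. Between 24 h and 12 h in vehicle cultures 292 became 156 with 1 added, 60 with no filter, 132 above the 75th percentile, 778 with array weights, 642 with the replicate block, 622 with all 17 arrays and pool as a random block, and 0 to 555 without 1 array. With AMH 200 ng/mL, 881 became 550 with 1 added, 1508 with quantile normalization, 401 with no filter, 4131 with array weights, 4207 with the random block and 0 to 2993 without 1 array. With AMH 50 ng/mL, 1709 became 765 with no filter, 986 above the 75th percentile, 646 with the random block, 0 with the array kept and 867 to 1703 without 1 array. The replicate block gave 798 with AMH 200 ng/mL and 1542 with AMH 50 ng/mL, and the labels state no pairing of the times at any dose. For the doses, array weights gave 8 (AMH 200 ng/mL, 24 h) and 1011 (AMH 50 ng/mL, 24 h) in place of 0, the 9 arrays of 24 h alone gave 1 for AMH 50 ng/mL, and leaving out a pool gave 0 to 226 for AMH 200 ng/mL and 0 to 4 for AMH 50 ng/mL at 12 h. With no replicate block every dose count stayed at 0. Of the 66 listed genes in vehicle cultures, 2 were called with array weights, 1 with the random block and 0 to 1 without 1 array. Overlap of the times was counted again with median centring, added after the data were seen, which gave 5711 non-overlapping of 22518 tested probe sets, against 5634 as deposited. Low signals, such as those of Plin4 at 12 h, lie below the median of the arrays, where the size of a difference rests on the value added.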
